A study of Sus scrofa with 9 samples.

Results

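*CRYAB*, which encodes alpha-B crystallin, and 6 further small heat shock protein genes, *HSPB1*, *HSPB2*, *HSPB3*, *HSPB6*, *HSPB7* and *HSPB8*, were followed across porcine cells in which the long noncoding RNA lnc*PLAAT3*-AS was targeted with an overexpression plasmid or an siRNA. They were taken by gene symbol, and all 7 were found among the 16562 genes of the expression table. They were selected on symbol and on differences between these same libraries that were already known, in both comparisons with the control, so their levels, fold changes and calls are a description and not a test of the choice. Primary preadipocytes came from the back fat of Rongchang piglets, the cells of all repeats came from the same pig, and RNA was sequenced in bulk on a BGISEQ500 instrument. The 9 libraries form 3 groups of 3: cells given a plasmid that overexpresses lnc*PLAAT3*-AS (overexpression), cells given an siRNA directed at it and labelled inhibition (siRNA), and control cells, labelled WT, which served both comparisons. In all 3 groups differentiation was induced with insulin, 3-isobutyl 1-methylxanthine and dexamethasone, and the labels place every library at day 8. The paper calls the controls a negative control, whereas the series describes them as blank, so what they were transfected with is uncertain. Replicates were repeated cultures of 1 animal, so errors measure the spread between cultures.

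Small heat shock proteins share an alpha-crystallin domain, assemble into oligomers and hold unfolding proteins in a soluble state without using ATP, until chaperones of the HSP70 class refold them. In muscle they bind desmin filaments, titin and filamin at the Z-disc, the anchor of the contractile apparatus, and mutations of *CRYAB* or of its client *DES* cause desmin-related myopathy in humans. *HSPB1* and *CRYAB* are also targets of the heat shock factor HSF1 in many tissues, while *HSPB2*, *HSPB3* and *HSPB7* are best known from heart and skeletal muscle.

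The labels call the cells adipocytes, but defining adipocyte transcripts were scarce. *ADIPOQ* (adiponectin) had 9 counts over the 3 overexpression libraries, 0 over the siRNA libraries and 11 over the control libraries, and *LEP* (leptin) was at 0 in siRNA and control libraries. The 11 adipocyte markers summed to 190 to 197 CPM (counts per 1e+06 counts of tested genes, scaled with TMM factors) in overexpression, 396 to 574 in siRNA and 163 to 192 in control libraries. The siRNA sum was mostly *LPL* (lipoprotein lipase), with a mean of 418 CPM in siRNA and 65.1 CPM in control libraries, whereas 5 of the 8 tested adipocyte markers fell after siRNA and 1 rose, and after overexpression 2 rose and 1 fell. The 9 fibroblast markers summed to 145290 to 147510 CPM in overexpression, 95048 to 102652 in siRNA and 119657 to 121635 in control libraries. The differences in these sums followed *COL1A1* and *COL1A2* (collagen I) and ran against most of the list, of which 3 rose and 6 fell after overexpression (median log2 fold change -0.31) and 6 rose and 3 fell after siRNA (median 0.25). Over all tested genes 23.9% rose and 23.4% fell after overexpression, and 29.5% rose and 29.9% fell after siRNA. Libraries held between 16724902 and 17495882 counts. The variance between replicate pairs was 1.41 to 1.60 times the sampling variance of their counts among overexpression libraries, 5.14 to 10.2 times it among siRNA libraries and 5.47 to 13.9 times it among control libraries, so the overexpression libraries lay closest together. The level of lnc*PLAAT3*-AS was not analysed here and gives no check of the labels.

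*CRYAB* was higher after overexpression and lower after siRNA than in the control, and it moved further in both directions than *HSPB6*, *HSPB8*, *HSPB2* or *HSPB1*. It had 524, 533 and 525 CPM in the overexpression libraries, 24.7, 22.1 and 22.7 CPM in the siRNA libraries, and 163, 170 and 157 CPM in the control libraries. The 3 groups did not overlap, and the spread within each group was small beside the gaps between them. The log2 fold change was 1.69 (standard error 0.0584), or 3.23-fold, after overexpression, and -2.82 (standard error 0.0669), or 7.06-fold lower, after siRNA. Between overexpression and siRNA libraries the log2 fold change was 4.51 (standard error 0.0691). On FPKM, the authors' values per gene length, *CRYAB* averaged 1004 ± 16.1 in overexpression, 35.2 ± 2.22 in siRNA and 277 ± 16.2 in control libraries (SD, n = 3 each), and the ratios to the control were somewhat wider, at 3.62-fold higher and 7.89-fold lower.

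**Figure D1:**
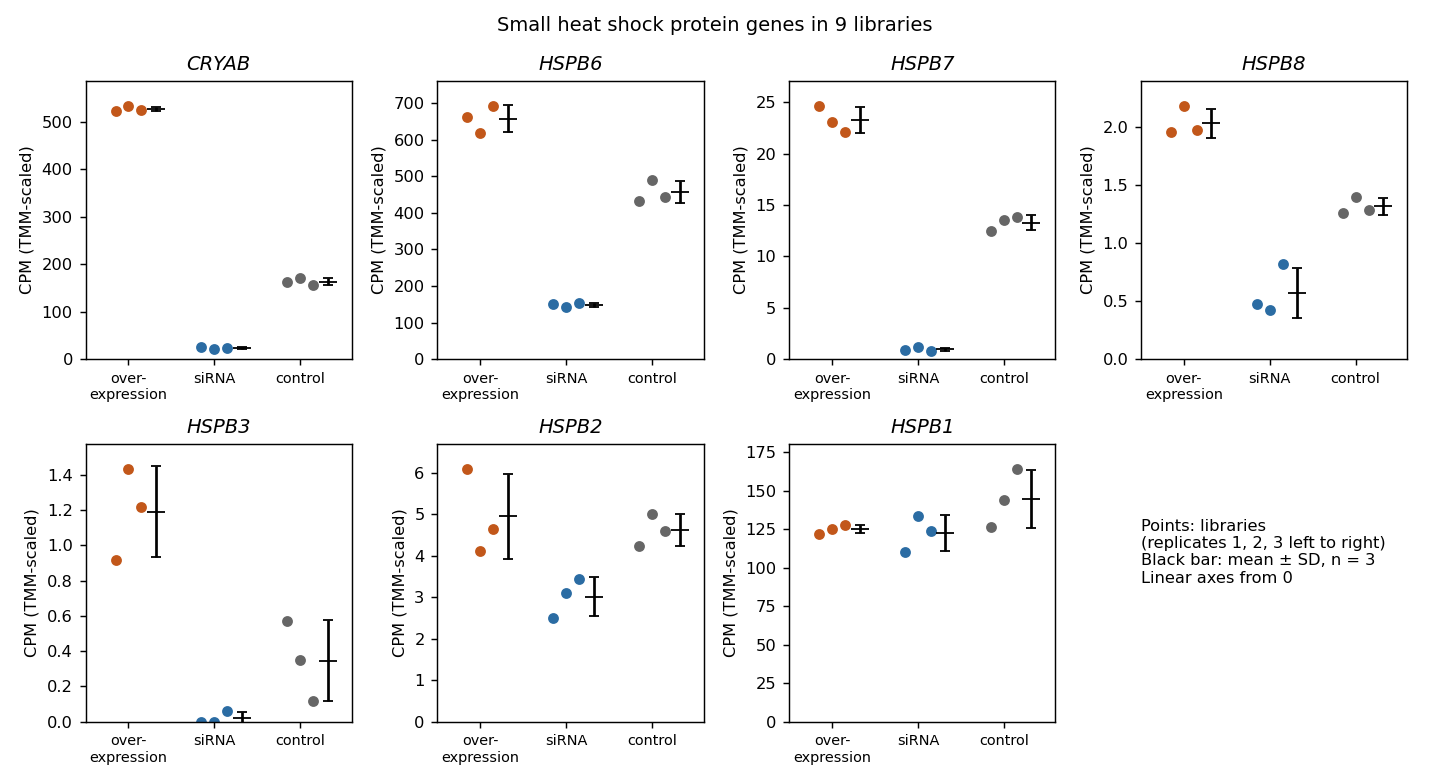
CPM of the 7 genes in each library (linear axes from 0), with libraries as points, the mean and SD of 3 libraries in black, and the overexpression, siRNA and control groups from left to right. *CRYAB*, *HSPB6*, *HSPB7*, *HSPB8* and *HSPB3* stand in 3 separate levels, with control libraries in the middle (156.957 to 170.215 CPM for *CRYAB*), whereas the *HSPB1* groups overlap.

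*HSPB6*, also called HSP20, is a small heat shock protein of smooth and striated muscle and a phosphorylation target of cyclic AMP and cyclic GMP kinases. It had 664, 620 and 692 CPM in overexpression libraries, 151, 143 and 153 CPM in siRNA libraries, and 434, 491 and 444 CPM in control libraries. As for *CRYAB*, the groups did not overlap and the control lay in the middle. The change was 0.53 on the log2 scale (standard error 0.0631) after overexpression and -1.61 (standard error 0.0655) after siRNA, smaller in both directions than that of *CRYAB*.

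*HSPB7*, a cardiac and skeletal muscle member that binds filamin C, was almost lost after siRNA. It had 24.6, 23.1 and 22.1 CPM in overexpression libraries, 0.836, 1.14 and 0.815 CPM in siRNA libraries, and 12.5, 13.5 and 13.8 CPM in control libraries. Over 3 libraries these were 1213 counts in overexpression, 47 in siRNA and 686 in the control. The log2 fold change was 0.81 (standard error 0.0877) after overexpression and -3.83 (standard error 0.150), or 14.2-fold lower, after siRNA. After siRNA *HSPB7* lay further below the control than *CRYAB*, and after overexpression it lay less far above.

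*HSPB8* and *HSPB3* were at low levels, so their changes were less certain. *HSPB8*, which forms a chaperone complex with the co-chaperone BAG3, had 1.96, 2.18 and 1.97 CPM in overexpression libraries, 0.478, 0.420 and 0.815 CPM in siRNA libraries, and 1.26, 1.40 and 1.28 CPM in control libraries. The groups did not overlap, although siRNA replicate 3 was well above the other siRNA libraries. From the summed counts of 106, 29 and 68 in the same order of groups, the ratio to the control was 1.55 (95% counting interval 1.13 to 2.13) after overexpression and 0.436 (0.272 to 0.682) after siRNA. *HSPB3*, a muscle member that pairs with *HSPB2* protein, had 16, 25 and 21 counts in overexpression libraries, 0, 0 and 1 in siRNA libraries, and 10, 6 and 2 in control libraries. The ratio of summed counts was 3.42 (1.997 to 6.14) after overexpression and 0.0568 (0.00136 to 0.359) after siRNA. *HSPB3* was kept for testing through its 3 overexpression libraries and 1 control library, so its presence among tested genes already favours a difference. Without siRNA replicate 3 the siRNA group had no count. With its level set to 3 counts over the remaining libraries, it would lie 3.88-fold below the control. That value takes the 18 control counts as exact and is not a strict bound. These intervals cover counting error only.

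For *HSPB2* and *HSPB1* overexpression and control libraries overlapped. *HSPB2* had 6.10, 4.13 and 4.64 CPM in overexpression libraries, 2.51, 3.12 and 3.44 CPM in siRNA libraries, and 4.25, 5.02 and 4.61 CPM in control libraries. Overexpression differed from the control by a log2 difference of 0.10 (95% interval -0.23 to 0.43), which became -0.08 without overexpression replicate 1. The siRNA libraries all lay below the control, at a log2 fold change of -0.61 (standard error 0.175). By the RefSeq annotation of Sscrofa11.1, used here for gene order only, *HSPB2* overlaps *CRYAB*, and *C9H11orf1* overlaps both. No source used here says how reads in overlapping genes were assigned or whether strand was used, so both genes are uncertain to that extent. Counts of *CRYAB* were 9053 to 9291, 368 to 413 and 2691 to 2916 per overexpression, siRNA and control library, against 72 to 106, 42 to 59 and 74 to 86 for *HSPB2*, while those of *C9H11orf1* were 184 to 202, 136 to 164 and 186 to 204. Overexpression and control libraries overlapped in their counts of both *HSPB2* and *C9H11orf1*.

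*HSPB1*, or HSP27, the most widely expressed member, which also regulates actin filaments, lay slightly below the control on average in both comparisons. It had 122, 125 and 128 CPM in overexpression libraries, 110, 134 and 124 CPM in siRNA libraries, and 126, 144 and 164 CPM in control libraries. Control libraries overlapped both other groups. The log2 fold change was -0.21 (standard error 0.0817) after overexpression and -0.24 (standard error 0.0818) after siRNA. Without control replicate 3 these became -0.11 and -0.14.

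**Figure D2:**
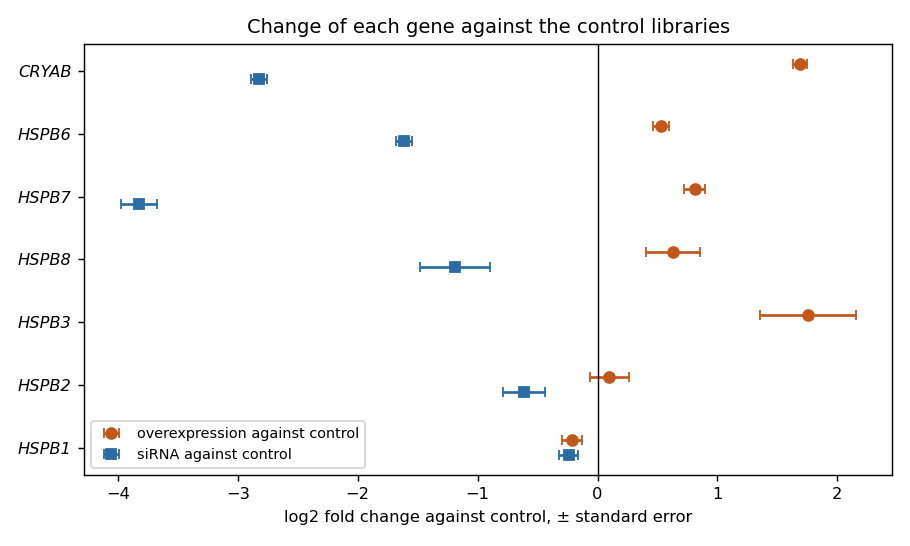
Log2 fold change of each gene against the control libraries, with standard errors from the fit of 9 libraries, for overexpression (circles) and siRNA (squares). *HSPB3* after siRNA is left out because only 1 count was seen there. *CRYAB* lies at 1.69 and -2.82, and *HSPB1* lies just below 0 in both comparisons.

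Across all tested genes, edgeR's quasi-likelihood test called 23.9% higher and 23.4% lower after overexpression at an adjusted p under 0.05. By this rule 5 of the 7 genes were called higher (*CRYAB*, *HSPB3*, *HSPB6*, *HSPB7*, *HSPB8*) and 1 lower (*HSPB1*). With a change of at least 2-fold added, 2.61% of all genes were called higher and 1.89% lower, and 2 of the 7 were higher (*CRYAB* and *HSPB3*) and 0 lower. After siRNA, 29.5% of tested genes were called higher and 29.9% lower, and all 7 were lower. *HSPB3* entered that comparison through the overexpression libraries, and it was not tested with a stricter filter or with the siRNA and control libraries alone, where 6 were lower. With at least 2-fold, 7.67% were higher and 7.52% lower, against 0 and 5 of the 7 (all but *HSPB1* and *HSPB2*). Between overexpression and siRNA libraries, 32.8% of tested genes were called higher and 33.9% lower, against 6 and 0 of the 7 (all but *HSPB1*), and with at least 2-fold 9.54% and 9.17%, against 5 and 0. By CPM alone, groups without overlap occurred for 28.6% of tested genes (all higher) and 28.5% (all lower) after overexpression, for 30.7% and 30.7% after siRNA, and for 35.9% and 36.6% between overexpression and siRNA, while 5, 0, 0, 6, 6 and 0 of the 7 fell in these classes in that order. The median log2 fold change of the 7 genes was 0.63 after overexpression and -1.61 after siRNA, beside medians of 0.01 and -0.00064 over 12721 tested genes. All 7 passed the expression filter, *HSPB3* through the overexpression libraries, where it was high. The filter thus favours *HSPB3* in every count above that includes it. With the stricter filter, where *HSPB3* was not tested, 4 were called higher after overexpression at an adjusted p under 0.05. Between overexpression and siRNA libraries 5 were higher by that filter. Since the genes were picked with these comparisons known, the counts describe them and nothing further is read from them. The call of *HSPB1* after overexpression was lost without control replicate 2 or 3 or without any 1 overexpression library (adjusted p = 0.0700 to 0.209 from edgeR), which leaves 0 lower. Its call after siRNA was lost without control replicate 3 (0.0883) or siRNA replicate 1 (0.104). The call of *HSPB8* after overexpression was lost with DESeq2 (0.121) and without control replicate 1 or 3 or any 1 overexpression library (0.0538 to 0.0960).

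The leading gene of the family differed between the groups on FPKM but not on CPM. By CPM, which is not divided by gene length, *HSPB6* had the highest mean in every group. It averaged 659, 149 and 456 CPM in overexpression, siRNA and control libraries. The FPKM order thus depends on the gene lengths behind the authors' values. On FPKM *CRYAB* led in overexpression libraries at 1004 ± 16.1, followed by *HSPB6* at 559 ± 30.6 and *HSPB1* at 380 ± 11.01 (SD, n = 3 each), with no overlap between these 3. In siRNA libraries *HSPB1* led at 349 ± 35.01, followed by *HSPB6* at 124 ± 7.31 and *CRYAB* at 35.2 ± 2.22, also without overlap. In control libraries *HSPB1* (368 to 458) and *HSPB6* (364 to 410) overlapped, with *CRYAB* (259 to 289) next. The remaining 4 genes were far below in every group: *HSPB7* averaged 23.6, 0.917 and 13.1 FPKM and *HSPB2* 2.96, 1.79 and 2.73 FPKM in overexpression, siRNA and control libraries, while *HSPB8* and *HSPB3* lay between 0 and 2.22 FPKM in every library.

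As a share of the summed FPKM of the 7 genes, *CRYAB* made up 50.9% ± 1.06 in overexpression, 6.92% ± 0.845 in siRNA and 25.5% ± 1.89 in control libraries (SD, n = 3 each). *HSPB1* made up 19.3% ± 0.362, 68.1% ± 2.95 and 37.9% ± 3.36. *HSPB6* made up 28.3% ± 1.28, 24.4% ± 2.17 and 35.02% ± 1.66, so it held a lower share in both manipulated groups than in the control. The sum itself was 1949 to 2009 FPKM in overexpression, 474 to 533 in siRNA and 1038 to 1127 in control libraries. Between overexpression and siRNA libraries *CRYAB* differed 28.5-fold on FPKM and 22.8-fold in the fit of counts. The shares and the sum therefore depend on the FPKM scale. In bulk RNA, fewer cells that express a gene and less RNA per cell cannot be told apart.

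**Figure D3:**
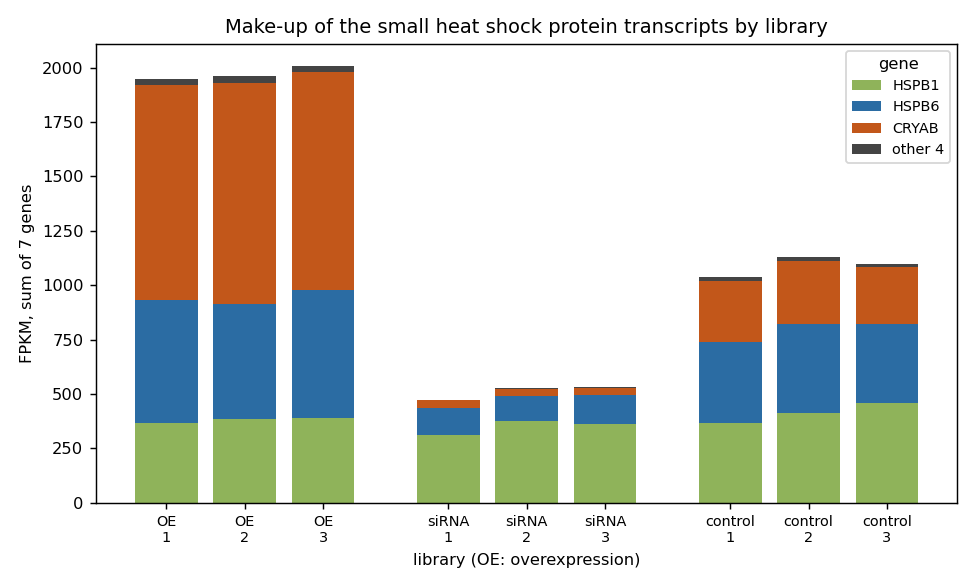
Summed FPKM of the 7 genes in each library (linear axis from 0), stacked by gene, with *HSPB2*, *HSPB3*, *HSPB7* and *HSPB8* drawn together as the other 4. The *HSPB1* block is of similar height in all libraries (308.69 to 457.97 FPKM), whereas *CRYAB* fills 49.9% to 52.0% of the overexpression bars and is a thin band in the siRNA bars.

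Other heat shock chaperones were taken next. Of 22 listed cytosolic and mitochondrial chaperones and their cofactors, 18 were tested. After overexpression 8 rose, 2 fell and 8 did not pass (median log2 fold change 0.15), beside 23.9% of all tested genes called higher and 23.4% lower. The largest riser was *DNAJB4*, an HSP40 co-chaperone, with 115 ± 4.06 CPM in overexpression and 55.7 ± 7.57 CPM in control libraries (SD, n = 3 each), which is 1.05 on the log2 scale (standard error 0.0760, edgeR adjusted p = 9.31e-10). *HSPH1*, an exchange factor of HSP70, rose by 0.49 (adjusted p = 4.28e-06) and *PTGES3*, the p23 cofactor of HSP90, by 0.32 (adjusted p = 0.00365), while *SERPINH1*, the collagen chaperone HSP47, fell by 0.32 (adjusted p = 0.000429). The count of risers was 5 without overexpression replicate 1 or 2, and that of fallers was 1 with DESeq2 or without control replicate 2 or 3 or overexpression replicate 2 or 3.

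After siRNA, 9 of the 18 rose, 4 fell and 5 did not pass (median 0.14), beside 29.5% of all tested genes called higher and 29.9% lower, and 0 changed by 2-fold. *HSP70.2*, an inducible HSP70 gene of the pig, had 178 ± 15.2 CPM in siRNA and 107 ± 7.52 CPM in control libraries (SD, n = 3 each) and rose by 0.74 (standard error 0.0691, adjusted p = 7.72e-09 from edgeR). *HSPA4L* rose by 0.65 (adjusted p = 6.67e-05), whereas its HSP110 relative *HSPA4* fell by 0.55 (adjusted p = 6.49e-08) and *SERPINH1* by 0.57 (adjusted p = 1.34e-07). *PTGES3* (0.37, adjusted p = 0.000701) and *HSPH1* (0.25, adjusted p = 0.00281) rose after siRNA as they did after overexpression. Near-identical HSP70 copies may share reads, which was not checked. Of the other genes named for or related to the family, *HSPB11*, an intraflagellar transport gene that carries an HSPB name, was at -0.33 (adjusted p = 0.0282) after overexpression and -0.07 (adjusted p = 0.605) after siRNA. Its fall was not called with DESeq2 (adjusted p = 0.0934) or without control replicate 3 or overexpression replicate 1 or 2 (0.0521 to 0.127). *ODF1*, a sperm tail gene, had 0, 4 and 0 counts in overexpression, siRNA and control libraries.

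Chaperone partners of the small heat shock proteins in muscle were listed as the BAG3 complex and chaperone-assisted selective autophagy, a route by which BAG3, HSPB8 and HSC70 remove damaged filamin. All 18 listed genes were tested. *BAG3* had 135 ± 7.72 CPM in overexpression, 139 ± 8.50 in siRNA and 137 ± 3.80 in control libraries (SD, n = 3 each), with log2 differences of -0.03 (edgeR adjusted p = 0.704) and 0.02 (adjusted p = 0.815) from the control, the first of which was 0.02 without overexpression replicate 3 and the second -0.01 without control replicate 1 and -0.03 without siRNA replicate 2. *HSPA8*, the constitutive HSC70, rose by 0.35 after overexpression (adjusted p = 4.31e-05) and was at 0.11 after siRNA (adjusted p = 0.0962; called at 0.0364 without control replicate 3). After overexpression 5 of the 18 rose and 5 fell (median 0.03), and after siRNA 5 rose and 7 fell (median -0.06), beside 23.9% of all tested genes called higher and 23.4% lower after overexpression and 29.5% and 29.9% after siRNA. Nothing particular to the list is read from these counts.

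Within that list the cytoskeletal clients moved furthest after siRNA. *SYNPO2*, an actin-bundling Z-disc protein that binds BAG3, had 94.5 ± 4.19 CPM in overexpression, 6.61 ± 1.28 in siRNA and 76.2 ± 10.6 in control libraries (SD, n = 3 each) and fell by 3.53 after siRNA (standard error 0.120, edgeR adjusted p = 1.43e-14). *FLNC*, the muscle filamin, had 752 ± 11.4, 125 ± 14.8 and 566 ± 9.12 CPM in the same order and fell by 2.18 after siRNA (adjusted p = 2.52e-16), and *FLNA* fell by 1.16 (adjusted p = 1.72e-12). *FLNC* rose by 0.41 after overexpression (adjusted p = 6.13e-05). The autophagy receptor *SQSTM1* moved the other way after siRNA, with 1059 ± 85.7 CPM in siRNA and 422 ± 11.8 CPM in control libraries, a rise of 1.33 (adjusted p = 1.30e-13). After overexpression *SYNPO* fell by 0.51 (adjusted p = 1.48e-06), *MAP1LC3A* by 0.49 (adjusted p = 8.41e-06) and *MAP1LC3B* by 0.38 (adjusted p = 6.05e-05), both *MAP1LC3* genes encoding LC3 proteins of the autophagosome membrane. *SYNPO* (-0.20, adjusted p = 0.00887) and *MAP1LC3A* (-0.54, adjusted p = 7.65e-07) fell after siRNA too, whereas *MAP1LC3B* rose there (0.20, adjusted p = 0.0101).

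Intermediate filament and Z-disc genes, which encode the structures that small heat shock proteins bind in muscle, were listed with earlier results of these libraries known. Of 27 listed, 20 were tested, and after siRNA 16 fell, 1 rose and 3 did not pass, 12 of them falling at least 2-fold, with a median log2 fold change of -1.58. Over all tested genes 29.9% were called lower after siRNA, and 7.52% at 2-fold or more, while 29.5% were called higher. After overexpression 23.9% of all tested genes were called higher and 23.4% lower. *DES*, desmin, the main client of alpha-B crystallin in muscle, had 1354 ± 25.9 CPM in overexpression, 0.731 ± 0.182 in siRNA and 724 ± 79.0 in control libraries (SD, n = 3 each). Its log2 fold change was -9.94 (standard error 0.132, edgeR adjusted p = 2.76e-22) after siRNA and 0.90 (standard error 0.0706, adjusted p = 2.92e-09) after overexpression. *SYNM* (synemin) and *SYNC* (syncoilin), which bind desmin, fell after siRNA, with log2 fold changes of -3.26 and -2.69 (adjusted p = 3.43e-15 and 1.11e-15), as did *ANKRD1*, a stretch-responsive titin-binding protein (-3.98, adjusted p = 1.32e-07, from 6 counts in siRNA and 102 in control libraries). After overexpression 8 rose, 6 fell and 6 did not pass (median 0.05), among them *ANKRD1* (1.82, adjusted p = 3.09e-07) and *NES*, nestin (0.99, adjusted p = 8.24e-09), which rose, and the epithelial keratin *KRT19* (-3.02, adjusted p = 4.28e-07), which fell. *KRT19* also fell after siRNA (-2.05, adjusted p = 3.40e-06).

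**Figure D4:**
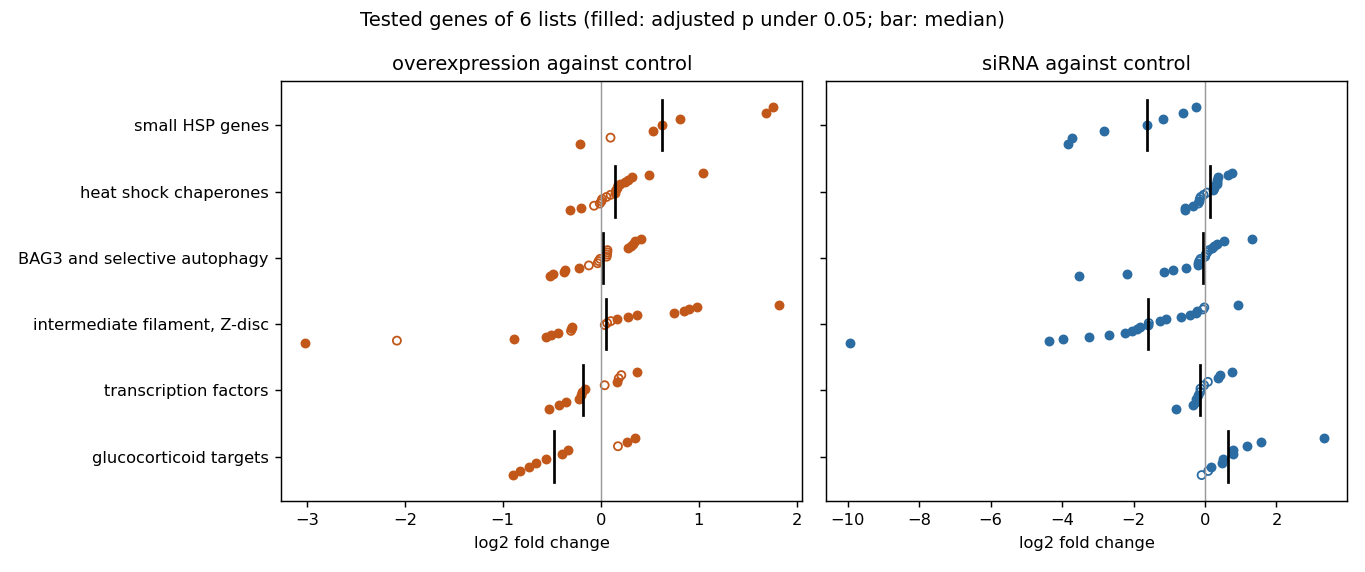
Log2 fold changes of the tested genes in 6 lists, overexpression against control on the left and siRNA against control on the right (axes differ in range), with filled points for an adjusted p under 0.05 and a bar at each list's median. The small heat shock protein genes have medians of 0.63 and -1.61, while the heat shock chaperones have 0.15 and 0.14, and *DES* lies at -9.94 on the right. The *HSPB3* point on the right rests on 1 siRNA count and depends on the prior count of the fit.

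Of 19 listed transcription factors and cofactors described for these genes, 12 were tested, and 0 passed with a 2-fold change in either comparison. Over all tested genes that class held 2.61% higher and 1.89% lower after overexpression and 7.67% higher and 7.52% lower after siRNA. Without the 2-fold threshold it held 23.9% higher and 23.4% lower after overexpression, and 29.5% and 29.9% after siRNA. *HSF1*, the master factor of the heat shock response, had 62.8 ± 1.38 CPM in overexpression, 64.1 ± 2.88 in siRNA and 73.3 ± 6.76 in control libraries (SD, n = 3 each), and was called at -0.22 (edgeR adjusted p = 0.0102) and -0.19 (adjusted p = 0.0186), the same direction in both comparisons. The first call was lost without control replicate 2 or overexpression replicate 3 (0.0526 to 0.0600) and the second without control replicate 2 or 3 or siRNA replicate 1 or 3 (0.0501 to 0.0900). After overexpression 7 fell, 2 rose and 3 did not pass, among them *PSIP1*, a coactivator known to bind stress gene promoters (-0.52, adjusted p = 1.78e-05), *SRF*, the factor of CArG boxes in muscle genes (-0.43, adjusted p = 1.25e-05), its coactivator *MRTFA* (-0.35, adjusted p = 0.000260), and *NR3C1*, the glucocorticoid receptor (0.37, adjusted p = 7.22e-05). The 7 became 4 without control replicate 2 or overexpression replicate 3, and the 2 became 1 with limma on FPKM or without control replicate 2 or overexpression replicate 1 or 3. After siRNA 5 fell, 3 rose and 4 did not pass, including *HSBP1*, a negative regulator of *HSF1* (-0.82, adjusted p = 8.35e-11), *MEF2D* (0.76, adjusted p = 1.56e-10), *HSF2* (0.42, adjusted p = 0.00342) and *MEF2A* (0.35, adjusted p = 0.000502). *PSIP1* (-0.25, adjusted p = 0.00921) and *SRF* (-0.35, adjusted p = 5.57e-05), which fell after overexpression, were among the 5. The 5 became 3 without control replicate 2 or siRNA replicate 3. *MYOD1*, *MYOG* and *MYF5*, which commit cells to skeletal muscle, had too few counts to be tested.

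*CRYAB* is also known as a gene induced by glucocorticoids, and dexamethasone was among the agents used to induce differentiation. The paper does not say whether it was still present at day 8. Of 13 listed targets of the glucocorticoid receptor, 10 were tested. After overexpression 7 fell and 2 rose, with a median log2 fold change of -0.47, beside 23.4% of all tested genes called lower and 23.9% higher. *KLF15* fell by 0.90 (edgeR adjusted p = 4.00e-06), *ZBTB16* by 0.82 (adjusted p = 0.000231), *CEBPD* by 0.73 (adjusted p = 1.83e-08) and *ERRFI1* by 0.66 (adjusted p = 0.000349). The 2 risers were *DUSP1* (0.35, adjusted p = 6.67e-05) and *FKBP5* (0.26, adjusted p = 0.00140). *DUSP1* rose after siRNA too (0.16, adjusted p = 0.0218), and *FKBP5* did not pass there (0.09, adjusted p = 0.223). After siRNA 8 rose and 0 fell, with a median of 0.64, beside 29.5% of all tested genes called higher and 29.9% lower. *SGK1*, a kinase also induced by serum and osmotic stress, had 177 ± 4.39 CPM in siRNA and 17.7 ± 2.09 CPM in control libraries (SD, n = 3 each), a rise of 3.32 (standard error 0.0753, adjusted p = 5.29e-19). *PER1* rose by 1.57 (adjusted p = 1.24e-12), *ERRFI1* by 1.18 (adjusted p = 7.87e-07) and *ZBTB16* by 0.79 (adjusted p = 2.77e-05). The 2 comparisons share the control libraries. The part of glucocorticoids in the levels of *CRYAB* was not tested.

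The 11 listed markers of smooth muscle and pericytes summed to 12758 to 12808 CPM in overexpression, 2651 to 2919 in siRNA and 11696 to 12505 in control libraries, and none was at 0 in any group. After overexpression 6 of the 11 rose and 2 fell, and after siRNA 8 fell and 2 rose, with a median log2 fold change of -2.13. The risers after siRNA were *RGS5* (3.71, edgeR adjusted p = 2.11e-07) and *PDGFRB* (0.40, adjusted p = 8.81e-06), both used as pericyte markers. *MCAM* (-2.81, adjusted p = 5.15e-07), *CSPG4* (-2.19, adjusted p = 2.05e-17) and *NOTCH3* (-0.83, adjusted p = 7.48e-09), also used to mark pericytes, were among the 8 that fell. Over all tested genes 23.9% rose and 23.4% fell after overexpression, and 29.5% rose and 29.9% fell after siRNA. The same shares stand beside the skeletal and cardiac muscle counts and the macrophage counts below. The 17 skeletal and cardiac muscle markers in the table summed to only 9.98 to 10.96 CPM in overexpression, 0.657 to 1.40 in siRNA and 11.1 to 24.2 in control libraries. *MYOD1*, *TNNI1* and *TNNI2* were at 0 in overexpression and siRNA libraries, and *MYH7* in overexpression and control libraries. The 5 that were tested all fell after siRNA (median log2 fold change -4.11), while 2 fell and 0 rose after overexpression. They were kept for testing through control or overexpression libraries, so the filter favours a fall after siRNA. *MYL1* had 5.69 ± 0.379 CPM in overexpression, 0.0975 ± 0.121 in siRNA and 7.75 ± 1.22 in control libraries (SD, n = 3 each). The part of either muscle type in the levels of the small heat shock protein genes was not tested. The 10 macrophage markers summed to 28.005 to 28.7 CPM in overexpression, 6.53 to 8.90 in siRNA and 3.44 to 5.37 in control libraries. Of the 8 that were tested, 7 rose after overexpression and 1 did not pass. *CD163*, *C1QA*, *C1QB*, *SIGLEC1* and *CSF1R* were kept for testing only through the overexpression libraries, where they were high. The filter thus favours their places among the 7. After siRNA *TYROBP* rose (6.11 CPM in siRNA and 2.19 CPM in control libraries on average), *MRC1* fell (log2 fold change -3.14, edgeR adjusted p = 3.52e-05) and 6 did not pass. Their part in the levels of the small heat shock protein genes was not tested either. *CD163*, *C1QA*, *C1QB* and *SIGLEC1* were at 0 in control libraries.

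The genes with the profile closest to that of *CRYAB* were sought among 9568 tested genes with a name and a mean of at least 5 CPM. Likeness was the root mean square difference of log2(CPM + 0.5), each gene set to its own control mean, over the 9 libraries. The closest were *GRIN3A*, a glutamate receptor subunit (0.357), *ELN*, elastin (0.386), *HSPA2*, a member of the HSP70 family known for its role in sperm development (0.389), *CTHRC1*, a secreted matrix protein (0.454), and *ENPP1*, an enzyme that makes pyrophosphate (0.480). *HSPA2* had 11.3 ± 1.28 CPM in overexpression, 0.336 ± 0.127 in siRNA and 4.90 ± 1.01 in control libraries (SD, n = 3 each), and *ELN* had 64.9 ± 0.606, 3.65 ± 0.707 and 30.4 ± 5.34 CPM in the same order. All 5 had a smaller fitted log2 fold change than *CRYAB* after overexpression (0.90 to 1.35) and a more negative one after siRNA (-4.19 to -2.86). In siRNA libraries *GRIN3A*, *HSPA2* and *CTHRC1* averaged 0.375, 0.336 and 0.372 CPM, below the added 0.5. Their fitted changes there were -4.19, -3.84 and -3.63, beside -2.82 for *CRYAB*. The added 0.5 shrinks such differences, so the places of these 3 genes among the closest are uncertain. Within the family *HSPB7* was the nearest to *CRYAB* by this measure (0.602), followed by *HSPB6* (0.959), *HSPB3* (1.30), *HSPB8* (1.36), *HSPB2* (1.61) and *HSPB1* (1.84). *HSPB3*, *HSPB8* and *HSPB2* averaged less than 5 CPM, where the added 0.5 shrinks log2 differences, so their places in this order are uncertain. *HSPB7* averaged 0.930 CPM in siRNA libraries, so its place is uncertain as well. *DES* lay farther away (3.73).

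**Figure D5:**
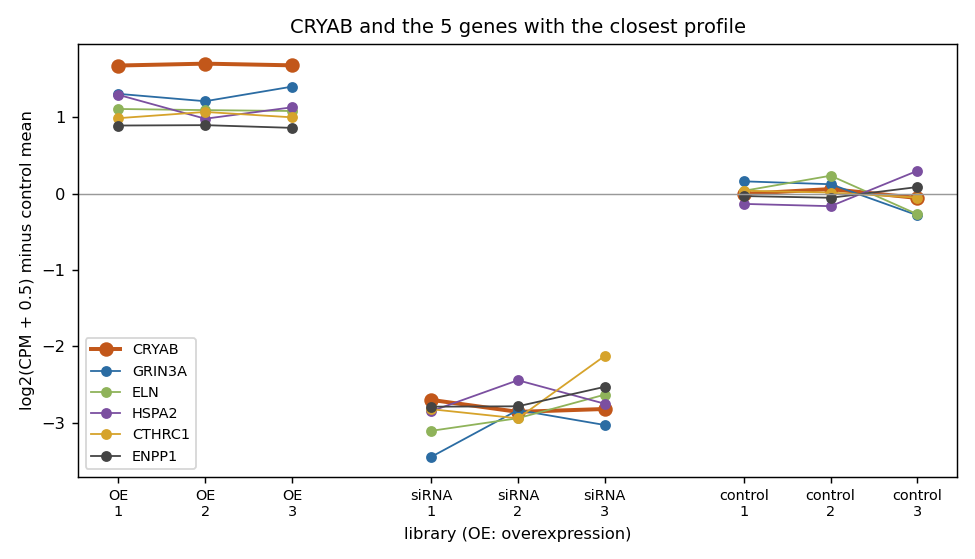
Log2(CPM + 0.5) minus the control mean in each of 9 libraries for *CRYAB* (thick line) and the 5 genes with the closest profile. All lie above 0 in overexpression libraries and below -2 in siRNA libraries, and *CRYAB* is the highest in the overexpression libraries.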

How the data were processed

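Read quality was assessed by the authors in FastQC, and alignment used HISAT, as the submitters' processing notes name them. Estimated counts and FPKM values per gene were deposited by the authors for every library. How they were counted, on which build and annotation and with what strand setting is not given in the sources used here. According to the labels, ribosomal RNA was removed, whereas the paper describes oligo(dT) priming. Column names matched the sample titles, and groups were taken from the sample titles.

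Estimated counts were rounded (5.38% of values were not whole; those of the 7 genes all were). Tests used edgeR 4.0.16 in R 4.3.3: default filterByExpr, TMM, robust quasi-likelihood F test, 1 fit of 9 libraries, Benjamini-Hochberg adjustment over 12721 genes. The study's own test is not stated. Standard errors are the absolute log2 fold change over the square root of F. "Rose" and "fell" mean an adjusted p under 0.05. The fit was tested on simulated data.

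The 7 genes and all lists were chosen with earlier results of these data known. Named genes are the 7, *HSPA8*, *BAG3*, *HSF1*, up to 4 genes per list and comparison with the largest passing change at a mean of at least 1 CPM (those of overexpression against siRNA are left out), and the 5 nearest profiles. *ODF1*, *ADIPOQ*, *LEP*, *C9H11orf1*, *MYOD1*, *MYOG*, *MYF5*, *TNNI1*, *TNNI2*, *MYH7*, *MYL1*, *COL1A1*, *COL1A2*, *LPL*, *RGS5*, *PDGFRB*, *MCAM*, *CSPG4*, *NOTCH3*, *TYROBP*, *MRC1*, *CD163*, *C1QA*, *C1QB*, *SIGLEC1*, *CSF1R*, *DUSP1* and *FKBP5*, where they fall outside this rule, were added after their values were seen. Sequences were not used here. Alternatives were DESeq2 1.42.0, no TMM, no or a stricter filter, 2 groups only, a replicate block, limma 3.58.1 on log2(FPKM + 0.1) or log2(FPKM + 1), a 2-fold threshold and each library left out.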

Additional observations from a re-analysis of the deposited data

How the results depend on the processing

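*CRYAB*, *HSPB6* and *HSPB7* kept direction and call in both comparisons with the control under the 17 alternatives to the fit, though under the 2-fold threshold *HSPB6* and *HSPB7* were not called after overexpression, with *CRYAB* at 1.66 to 1.86 after overexpression and -2.98 to -2.79 after siRNA. No scaling moved the median of all genes by 0.1. With at least 2-fold, 2 of the 7 genes were higher and 0 lower after overexpression. On limma with log2(FPKM + 0.1) or log2(FPKM + 1) no gene of the 7 was lower after overexpression (0 against 1), *HSPB1* being at -0.11 in both; the cause was not tested. With DESeq2 *HSPB8* was at 0.63 after overexpression (adjusted p = 0.121). Over the libraries left out in turn, *HSPB1* after overexpression ranged from -0.31 to -0.11 and after siRNA from -0.34 to -0.14, *HSPB8* after overexpression from 0.58 to 0.67, and the number lower after overexpression from 0 to 1. *HSPB2* after overexpression ranged from -0.076 to 0.22, the negative value coming without overexpression replicate 1. *HSPB1* in overexpression against siRNA ranged from -0.043 to 0.097, the negative value coming without siRNA replicate 1. *BAG3*, not called in any of them, ranged from -0.059 to 0.016 after overexpression and from -0.032 to 0.052 after siRNA, and changed sign without overexpression replicate 3, control replicate 1 (-0.011) or siRNA replicate 2. In the fit with a replicate block *CRYAB* was at 1.69 and -2.82, and 5 genes were higher and 1 lower after overexpression and 7 lower after siRNA. Deviations of same-numbered libraries correlated between -0.17 and 0.31, so the numbers were not taken as pairs. Depth limits *HSPB3* and *HSPB8*, and 3 libraries of 1 animal per group limit all values.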

Other observations

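The number of counts behind each FPKM unit shifted for *CRYAB*. Scaled to the control and to the median of 6956 well-counted genes, it was 0.891 to 0.904 in overexpression, 1.11 to 1.12 in siRNA and 0.992 to 1.01 in control libraries. A value as low in overexpression was seen in 1.32% of those genes, and one as high in siRNA in 0.259%. For *HSPB6* the same quantity was 0.988 to 0.991, 0.999 to 1.00 and about 1.00, and for *HSPB7* it was 0.983 to 0.987, 0.998 to 1.01 and 0.999 to 1.00. For *HSPB1* it was 0.933 to 0.951, 0.993 to 1.01 and 0.997 to 1.00. Transcript-level counts were not analysed here.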
